A study of Mus musculus with 10 samples.

Results

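The 10 genes followed here mark tissue-resident and perivascular macrophages, and their RNA was measured by bulk sequencing in mouse mammary tumors: Mrc1, Cd163, Lyve1, Stab1, Folr2, F13a1, Pf4, Selenop, Gas6 and Mertk. They were taken by symbol, with no threshold on a measured value. All 10 were among the 23202 genes listed for sorted tumor macrophages, and 9 were among the 19720 genes listed for whole tumors, where Pf4 had no entry. The tumors came from B6:MMTV-PyMT mice, in which the MMTV promoter drives a viral oncogene in the mammary epithelium, and were taken at 15 weeks of age. Mice labelled cKO carried Cxcr4fl/fl with LysmCre, a Cre recombinase driven by the myeloid lysozyme promoter, and controls were littermates that lacked the Cre. The oncogene was common to both genotypes. The macrophages were sorted on F4/80 and CD11b after enzymatic digestion of the tumor, from 3 cKO mice (725, 746 and 867) and 3 control mice (706, 720 and 775). Whole tumors were sequenced from cKO mice 725 and 746 and from control mice 706 and 720. The tumors were chosen in pairs of similar size, but no source used here names the partners.

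Macrophages that settle in tissues, in particular those that sit along blood vessels, take up spent proteins, lipids and dying cells through scavenger receptors. Mrc1 is the mannose receptor, Cd163 takes up haemoglobin bound to haptoglobin, Lyve1 binds hyaluronan, Stab1 (stabilin 1) is a multi-ligand scavenger receptor and Folr2 is a folate receptor. F13a1, the A subunit of coagulation factor XIII, Pf4, a chemokine also made by megakaryocytes and stored in platelets, and Selenop, a selenium carrier, are secreted or released proteins. Gas6 is a secreted ligand that bridges dying cells to the receptor tyrosine kinase Mertk, which drives their engulfment. Several of these genes are also used by other cells: Lyve1 marks lymphatic endothelium, and Gas6 and Selenop are expressed outside the myeloid lineage.

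The sorted cells carried macrophage genes, though not only those. Levels are given as CPM, counts scaled to 1e+06 listed reads in each library. The summed level of 12 macrophage identity genes (such as Adgre1, which encodes F4/80, and Csf1r) was 2239, 2808 and 1763 CPM in cKO macrophages 725, 746 and 867, and 2524, 2503 and 957 CPM in control macrophages 706, 720 and 775. For the 11 of these genes listed in both tables, the macrophage library held 12.6 and 15.4 times the tumor level in the cKO mice and 14.6 and 16.3 times in the controls. Summed epithelial markers, in contrast, ran from 4619 to 6019 CPM in cKO macrophages and from 3376 to 7153 CPM in control macrophages. Over the 4 tumors they ran from 5298 to 7363 CPM. Csn3, a milk protein gene, gave most of the tumor sum (means of 5540 CPM in cKO and 4982 CPM in control tumors). Mean Krt18, a keratin, was 559 and 430 CPM in cKO and control macrophages against 130 and 120 CPM in tumors. Epcam differed less (506 and 417 CPM against 347 and 401 CPM). Cxcr4, the floxed gene, showed no drop with the cKO label: it had 41.9, 165 and 24.1 CPM in cKO macrophages 725, 746 and 867 and 14.4, 135 and 54.3 CPM in control macrophages 706, 720 and 775, and 47.9 and 57.6 CPM in cKO tumors against 29.8 and 33.4 CPM in control tumors. Counts over a whole gene do not show whether the floxed exon was lost. Lyz2, the lysozyme gene whose promoter drives the Cre, was counted low in every macrophage library. It had 4.55, 1.35 and 7.31 CPM in cKO macrophages 725, 746 and 867 and 3.10, 0.134 and 3.44 CPM in control macrophages 706, 720 and 775. The cause of these low counts was not tested. Depth was 14.4 to 25.2 M reads for macrophages and 34.2 to 53.4 M reads for tumors (M, 1e+06), so a gene listed at 0 may hold up to 0.208 and 0.0878 CPM (3 reads, counting error only). Genes also dropped out of single libraries: where a table's remaining libraries put a gene at 5 to 15 CPM, a macrophage library had fewer than 3 reads for 0.656% to 5.86% of such genes, and a tumor library for 0.880% to 2.72%. In bulk RNA, fewer cells of a type and less RNA per cell cannot be told apart.

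Between genes, levels were compared per kilobase of the main transcript. In macrophages, Selenop was the most abundant of the 10 at 357 ± 76.1 CPM per kilobase (SD over the 6 libraries, both genotypes). F13a1 (35.1 ± 31.1), Gas6 (33.8 ± 10.3), Mrc1 (31.7 ± 31.5) and Stab1 (22.4 ± 8.03 CPM per kilobase) came next and did not differ beyond their spread. Pf4 (12.5 ± 6.60), Cd163 (8.46 ± 12.2), Mertk (8.11 ± 3.78), Folr2 (5.68 ± 3.47) and Lyve1 (3.44 ± 4.17 CPM per kilobase) were the lowest, each within the spread of its neighbours. The SD of Mrc1, Cd163, Lyve1 and F13a1 was about as large as, or larger than, their mean, while that of Selenop was far smaller than its mean, so the genes differed in how evenly the libraries carried them. In tumors, Selenop (101 ± 20.9 CPM per kilobase, SD over 4 libraries) and Gas6 (17.0 ± 1.31) stood above Mrc1 (3.81 ± 0.833) and F13a1 (3.40 ± 0.427), and Stab1, Cd163, Mertk, Lyve1 and Folr2 were all at 1.53 CPM per kilobase or less.

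No member passed the test between cKO and control macrophages. Each gene was tested with limma on log2(CPM + 1) across 16304 genes, and every member had an adjusted p of 0.9998. Across all genes, 0% passed the threshold of 0.05, and 2.63% had an unadjusted p under 0.05, a group in which no member fell. The log2 difference (cKO minus control) was positive for 8 of the 10 members with a median of 0.37, where 54.7% of all genes were positive with a median of 0.05. That count rested on 1 library: without cKO 867, the difference was positive for 5 of 10 and the median was 0.02.

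**Figure D1:**
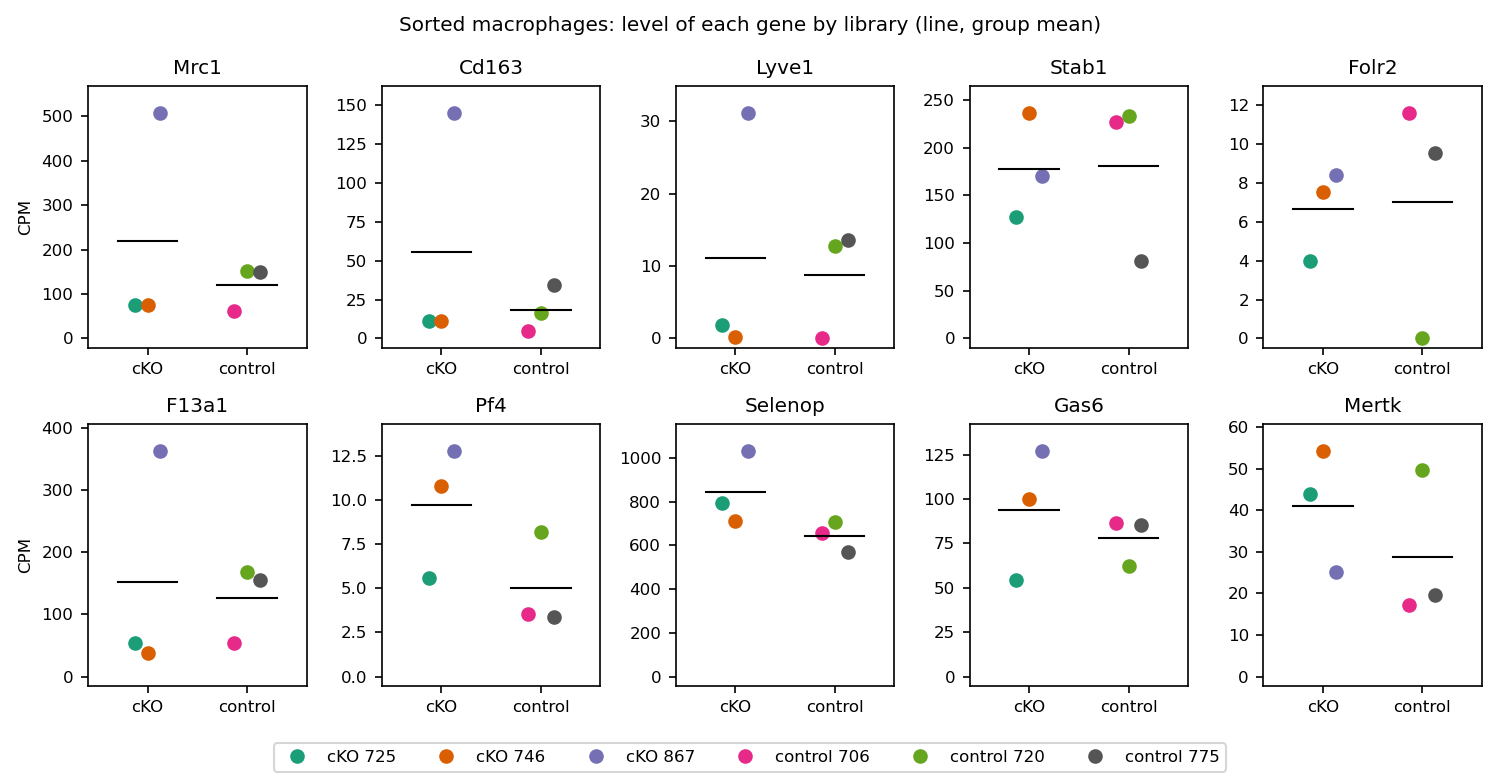
Level of each of the 10 genes in CPM (linear axis starting just below 0) in the 3 cKO libraries, left, and the 3 control libraries, right, of sorted macrophages. Points are libraries, coloured by mouse, and lines are group means; cKO 867 is the highest point for 7 of the 10 genes, among them Mrc1 at 507 CPM and Cd163 at 145 CPM.

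Among the scavenger receptors, Mrc1 (Ensembl ENSMUSG00000026712; GRCm38 chromosome 2, 14229392 to 14332057, + strand, 30 exons in its main transcript) had 76.2, 76.1 and 507 CPM in cKO macrophages 725, 746 and 867, against 61.5, 153 and 149 CPM in control macrophages 706, 720 and 775. The cKO group held both the highest library, 3.32 times the next, and libraries under 2 of the controls, so the groups overlapped. The log2 difference was 0.35 (SE 0.49, 95% interval -0.66 to 1.37) by limma. Cd163 (chromosome 6, 124304656 to 124330527, + strand, 17 exons) was also highest in cKO 867 and lowest in control 706: 11.5, 11.3 and 145 CPM in cKO macrophages and 5.14, 16.2 and 34.5 CPM in control macrophages. Its highest library, cKO 867, was 4.20 times the next, and the log2 difference was 0.86 (SE 0.71, interval -0.61 to 2.33). Without cKO 867, the log2 difference was -0.55 for Mrc1 and -0.33 for Cd163. The direction of both therefore depended on that library.

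Lyve1 (chromosome 7, 110850607 to 110863239, - strand, 6 exons) differed widely between libraries. It had 1.92, 0.150 and 31.1 CPM in cKO macrophages 725, 746 and 867, which is 39, 3 and 783 reads, and 0.0695, 12.7 and 13.7 CPM in control macrophages 706, 720 and 775, which is 1, 286 and 314 reads. Each genotype thus held libraries with Lyve1 above 10 CPM and libraries with almost none, and the log2 difference was -0.33 (SE 1.04, interval -2.50 to 1.83). Prox1, the transcription factor that defines lymphatic endothelium, was at 3.29, 8.50 and 3.18 CPM in cKO macrophages and 1.18, 2.09 and 7.70 CPM in control macrophages. The summed lymphatic endothelial list was 33.7, 36.0 and 47.9 CPM in cKO macrophages and 26.5, 24.7 and 37.7 CPM in control macrophages. Both the sum and Lyve1 were highest in cKO 867 and then control 775, but the lower libraries were ordered differently. Control 720 had the lowest sum beside 12.7 CPM of Lyve1, and cKO 746 had 36.0 CPM beside 0.150 CPM of Lyve1. Of these sums, Pdpn (podoplanin) gave 12.2 to 32.2 CPM. The part of lymphatic endothelium in the level of Lyve1 was not tested.

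Stab1 (chromosome 14, 31139013 to 31168641, - strand, 69 exons) had 128, 236 and 170 CPM in cKO macrophages 725, 746 and 867, against 226, 233 and 81.5 CPM in control macrophages 706, 720 and 775. It was not raised in cKO 867 and was lowest in control 775, the library with the lowest identity sum. Set against the 11 identity genes in the same library, Stab1 was the steadiest of the receptors: 57.3, 84.3 and 96.9 CPM per 1000 CPM of identity genes in cKO macrophages and 90.0, 93.2 and 85.5 in control macrophages. Its log2 difference was 0.08 (SE 0.34, interval -0.61 to 0.78), and -0.17 when computed relative to the identity genes. Folr2 (chromosome 7, 101839988 to 101857194, - strand, 6 exons) was low throughout, at 3.99, 7.50 and 8.41 CPM in cKO and 11.6, 0 and 9.52 CPM in control macrophages. Control 720 was listed at 0 although it had Lyve1 at 12.7 CPM. That library had under 3 reads for 4.30% of genes at 5 to 15 CPM in the others. The cause of the 0 was not tested. Without control 720 the log2 difference of Folr2 was -0.64, against 0.53 (SE 0.82, interval -1.16 to 2.23) with it. It also moved with the pseudocount, to 1.52 at 0.1 CPM and 0.11 at 5 CPM. A non-coding gene on the opposite strand, Gm10602, overlaps Folr2 and held 0 to 5.35 CPM in macrophages; whether counting used strand is not given in the sources used here, so reads of overlapping genes cannot be told apart.

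Promoter windows (250 bases before to 50 after the start, from RefSeq on GRCm38.p6) are shown for 3 of the 4 members with a shared profile, Mrc1, Cd163 and F13a1, and for Stab1, a receptor outside it. RefSeq windows were matched by symbol for 9 of the 10 members, 13 windows in all. Capitals mark the core of the site of the myeloid factor PU.1, which is GAGGAA, or its reverse complement where it lies on the other strand. They also mark the half-site of MAF factors, which is TGCTGA. Neither motif overlaps the other here. GAGGAA was found on either strand in 7 of the 13 windows, those of Mrc1, F13a1, Pf4, Selenop and Stab1, and in 28.3% of all 32851 windows of that length. TGCTGA was found in 3 of 13 (Folr2 and Stab1) and in 19.5% of all. TATAAA and the GATA motif AGATAA were each found in 1 of 13 windows (Selenop and Pf4) and in 13.6% and 11.2% of all. The Selenop windows with GAGGAA overlap and share the same site. By gene, GAGGAA was found in 5 of the 9 members with a window. A match describes letters and not binding.
Mrc1, chr2:14229164-14229463, + strand: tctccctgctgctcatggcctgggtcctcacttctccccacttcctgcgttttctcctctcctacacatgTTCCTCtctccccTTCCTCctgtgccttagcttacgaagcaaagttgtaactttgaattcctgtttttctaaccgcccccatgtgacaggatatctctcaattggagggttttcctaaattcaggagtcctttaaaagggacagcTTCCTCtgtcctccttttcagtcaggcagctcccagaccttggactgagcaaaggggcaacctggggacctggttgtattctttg
Cd163, chr6:124304401-124304700, + strand: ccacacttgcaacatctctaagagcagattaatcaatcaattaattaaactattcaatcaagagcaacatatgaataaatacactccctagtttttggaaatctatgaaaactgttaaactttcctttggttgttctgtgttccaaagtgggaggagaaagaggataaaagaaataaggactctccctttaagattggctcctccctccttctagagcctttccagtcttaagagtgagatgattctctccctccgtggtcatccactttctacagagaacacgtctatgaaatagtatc
F13a1, chr13:37050195-37050494, - strand: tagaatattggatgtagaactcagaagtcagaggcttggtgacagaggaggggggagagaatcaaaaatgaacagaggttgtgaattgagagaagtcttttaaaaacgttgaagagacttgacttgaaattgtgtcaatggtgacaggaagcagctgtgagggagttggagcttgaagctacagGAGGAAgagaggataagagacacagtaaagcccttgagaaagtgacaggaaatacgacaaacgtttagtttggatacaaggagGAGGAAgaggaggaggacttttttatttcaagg
F13a1, second start, chr13:37049164-37049463, - strand: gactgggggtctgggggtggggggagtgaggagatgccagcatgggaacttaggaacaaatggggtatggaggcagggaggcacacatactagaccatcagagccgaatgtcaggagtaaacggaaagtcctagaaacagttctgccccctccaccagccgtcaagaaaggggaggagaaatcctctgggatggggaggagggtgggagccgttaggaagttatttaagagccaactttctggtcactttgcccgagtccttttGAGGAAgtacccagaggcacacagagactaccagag
Stab1, chr14:31168592-31168891, - strand: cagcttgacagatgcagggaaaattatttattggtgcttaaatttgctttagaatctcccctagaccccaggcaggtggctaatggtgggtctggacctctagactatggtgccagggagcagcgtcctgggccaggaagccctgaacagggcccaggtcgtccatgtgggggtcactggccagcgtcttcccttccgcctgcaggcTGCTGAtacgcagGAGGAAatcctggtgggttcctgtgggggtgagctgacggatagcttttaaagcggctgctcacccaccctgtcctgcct
The Mrc1 window held 3 matches to GAGGAA, all on the other strand, the F13a1 windows 2 and 1, and the Stab1 window 1 match to each motif. The Cd163 window held neither motif in these letters.

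Of the secreted proteins, F13a1 (chromosome 13, 36867178 to 37050244, - strand, 15 exons) moved with Mrc1. It had 53.3, 38.2 and 362 CPM in cKO macrophages 725, 746 and 867 and 54.7, 168 and 156 CPM in control macrophages 706, 720 and 775. The log2 difference was -0.31 (SE 0.54, interval -1.43 to 0.81), while the mean was higher in cKO (151 ± 183 CPM) than in control (126 ± 62.1 CPM; SD, n = 3 each), so the sign depended on whether levels were averaged on the linear or the log scale. The same held for Lyve1 (11.1 ± 17.4 CPM in cKO, 8.82 ± 7.59 CPM in control), Folr2 (6.64 ± 2.33 CPM in cKO, 7.03 ± 6.18 CPM in control) and Stab1 (178 ± 54.7 CPM in cKO, 180.3 ± 85.6 CPM in control). Pf4 (chromosome 5, 90772435 to 90773383, + strand, 3 exons) was low, at 5.56, 10.8 and 12.8 CPM in cKO and 3.54, 8.19 and 3.39 CPM in control macrophages. The groups overlapped only through cKO 725 and control 720, and the log2 difference was 0.85 (SE 0.62, interval -0.44 to 2.14; limma adjusted p = 0.9998). Platelet markers other than Pf4 were low: Ppbp, a chemokine of platelet granules, had 0.885, 2.05 and 0 CPM in cKO macrophages and was listed at 0 in all 3 controls, and Itga2b, the platelet integrin, had 0.393, 6.90 and 3.10 CPM in cKO and 0, 2.45 and 1.52 CPM in control macrophages. Their part in Pf4 was not tested.

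Selenop (chromosome 15, 3268547 to 3280508, + strand, 5 exons) was the only member with every cKO library above every control: 792, 710 and 1030 CPM in cKO macrophages 725, 746 and 867 and 656, 705 and 567 CPM in control macrophages 706, 720 and 775. The gap between the groups, 710 CPM in cKO 746 and 705 CPM in control 720, was narrow. The log2 difference was 0.38 (SE 0.26, interval -0.16 to 0.92; limma adjusted p = 0.9998). Such a complete separation upward was found in 1 of 10 members and in 3.78% of all genes tested, and separation downward in 0 of 10 members and in 3.45%. Selenop overlaps Ccdc152 on the opposite strand, which had 457, 418 and 143 CPM in cKO macrophages and 116, 37.3 and 186 CPM in control macrophages, so its counts carry that uncertainty.

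The ligand Gas6 (chromosome 8, 13465374 to 13494490, - strand, 15 exons) had 54.6, 100.1 and 127 CPM in cKO macrophages 725, 746 and 867 and 86.4, 62.5 and 85.3 CPM in control macrophages 706, 720 and 775. The cKO group held both the lowest and the highest library, and the log2 difference was 0.20 (SE 0.31, interval -0.44 to 0.83). Its receptor Mertk (chromosome 2, 128698956 to 128802894, + strand, 19 exons) had 43.8, 54.2 and 25.0 CPM in cKO macrophages and 17.1, 49.7 and 19.5 CPM in control macrophages, a log2 difference of 0.59 (SE 0.41, interval -0.25 to 1.43). Control 720 lay with the higher cKO libraries and cKO 867 with the lower controls. Ligand and receptor did not peak in the same library: Gas6 was highest in cKO 867, where Mertk was the lowest of the cKO group.

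**Figure D2:**
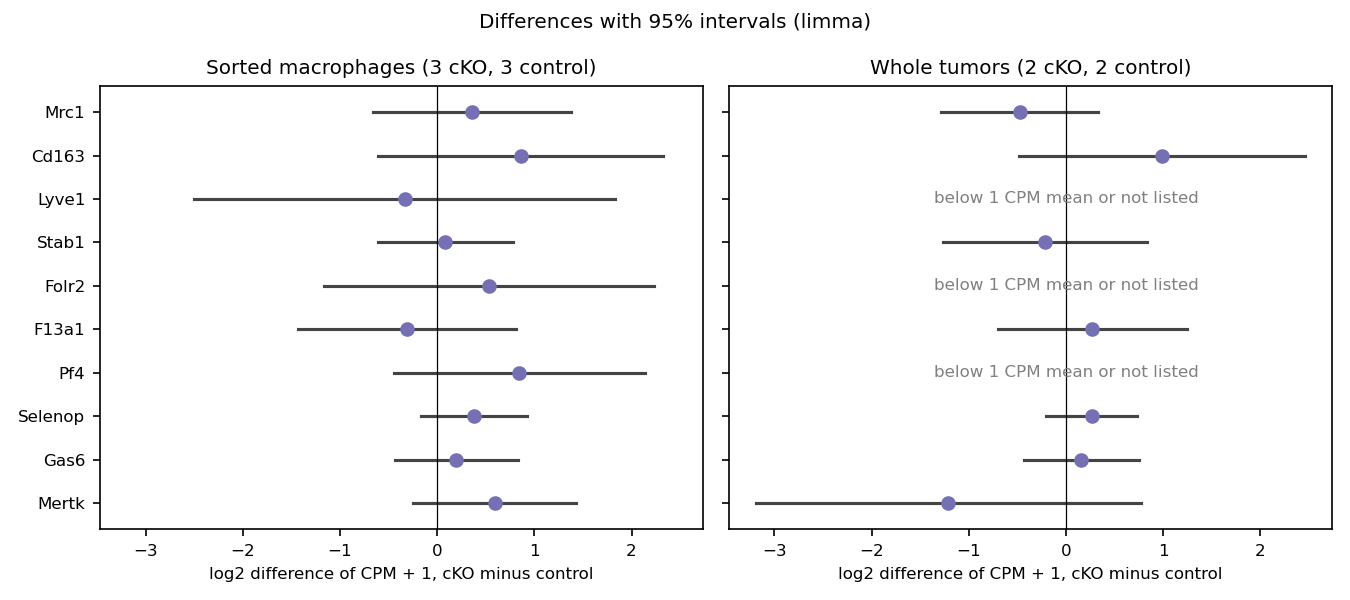
Log2 difference of CPM + 1, cKO minus control, for each gene in sorted macrophages, left, and whole tumors, right; points are limma estimates and bars 95% intervals, and genes without a point had a mean under 1 CPM (Folr2, Lyve1) or no entry (Pf4) in tumors. Every interval includes 0, from the narrow one of Selenop in tumors (-0.20 to 0.74) to that of Lyve1 in macrophages (-2.50 to 1.83).

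Across the 6 macrophage libraries, 4 of the members followed 1 profile. Mrc1, Cd163, F13a1 and Lyve1 were all highest in cKO 867 and lower in cKO 725, cKO 746 and control 706 than in control 720 and control 775. Likeness between genes was measured on log2 values, centred and divided by the SD of each gene, as the mean absolute difference over the 6 libraries. The 6 pairs among these genes differed by 0.209 (Mrc1 and Cd163) to 0.393 SD (Cd163 and F13a1), and each of the other 39 pairs by 0.578 SD or more, with a median of 0.929 SD over all 45 pairs and a maximum of 1.48 SD (Folr2 and Mertk). The 4 genes were grouped after their values were seen, so these distances describe them and test nothing. Of the 10 members, 7 were highest in cKO 867, 2 in cKO 746 and 1 in control 706, and 4 were lowest in control 706, 3 in control 775 and 1 each in cKO 725, cKO 746 and control 720.

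Marker sums of several other cell types were also highest in cKO 867, though those of epithelium and platelets were not. Blood endothelial markers summed to 36.9, 25.6 and 436 CPM in cKO macrophages 725, 746 and 867 and 17.0, 25.7 and 172 CPM in control macrophages 706, 720 and 775. Fibroblast markers summed to 70.7, 160 and 1281 CPM in cKO and 68.2, 91.2 and 478 CPM in control macrophages, and pericyte markers to 125, 218 and 371 CPM in cKO and 137, 221 and 204 CPM in control macrophages. Both endothelial and fibroblast sums were second highest in control 775, where Cd163 and Lyve1 were also second highest. Monocyte and neutrophil markers reached 1050 CPM in cKO 867, against 200 to 229 CPM in the other cKO libraries and 248 to 317 CPM in controls. Of the 1050 CPM, Ccr2, a chemokine receptor of monocytes, gave 978.8 CPM, and the list as a whole had 4 positive and 3 negative log2 differences (median 0.04). Dendritic cell markers reached 97.6 CPM in cKO 867, against 21.5 to 23.7 CPM in the other cKO libraries and 9.17 to 25.0 CPM in controls. The part of these cells in the levels of Mrc1, Cd163, F13a1 and Lyve1 was not tested. In control 720 the endothelial sum was 25.7 CPM and the fibroblast sum 91.2 CPM, beside 168 CPM of F13a1 and 12.7 CPM of Lyve1.

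**Figure D3:**
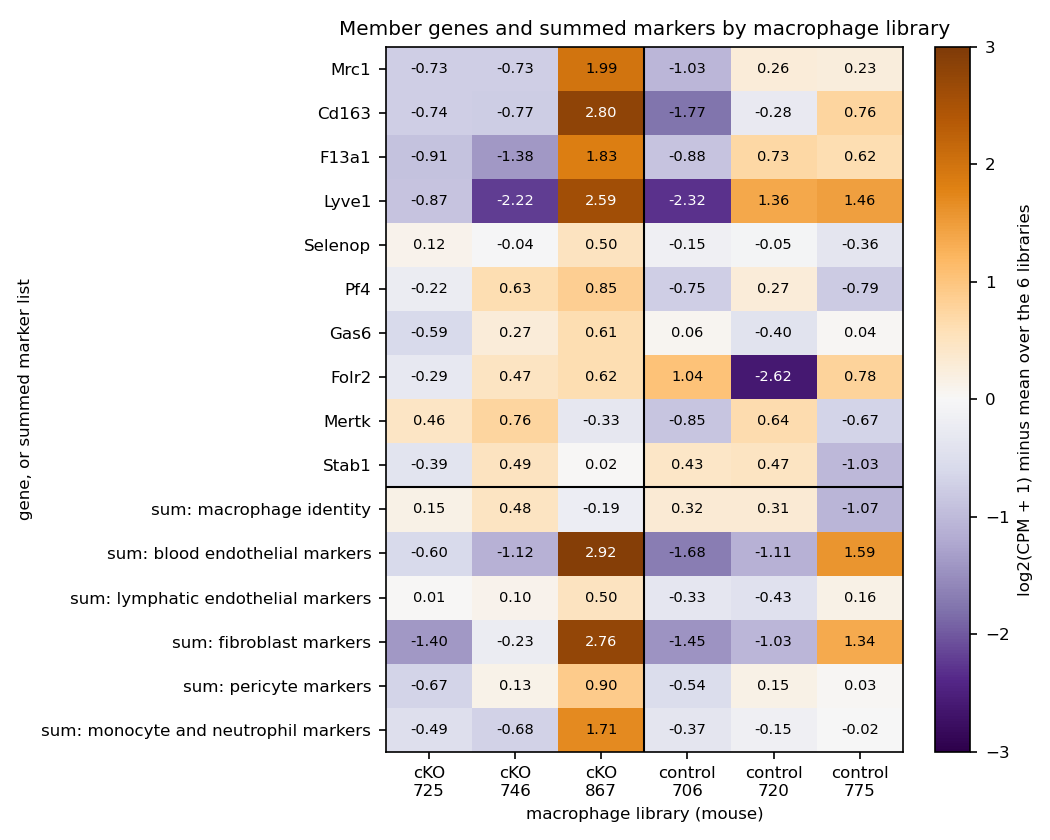
Log2(CPM + 1) of each gene (upper rows) and of summed marker lists (lower rows) in each macrophage library, minus the mean over the 6 libraries; columns are the 3 cKO mice, left, and the 3 controls, right. Mrc1, Cd163, F13a1 and Lyve1 are raised by 1.83 to 2.80 in cKO 867, as are the blood endothelial (2.92) and fibroblast (2.76) sums, while Stab1 (0.02) and the macrophage identity sum (-0.19) are not.

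Set against the identity genes, the spread of the profile genes widened. Mrc1 was at 34.1, 27.1 and 289 CPM per 1000 CPM of identity genes in cKO macrophages 725, 746 and 867 and 24.4, 61.1 and 157 in control macrophages 706, 720 and 775. Cd163 was at 5.15, 4.03 and 82.5 in cKO and 2.04, 6.50 and 36.2 in control macrophages on the same scale. The 2 libraries with high ratios, cKO 867 and control 775, were the 2 with the lowest identity sums, and both contributed no tumor library. In the mice with both kinds of library, Mrc1 therefore ranged only from 24.4 to 61.1 per 1000.

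In whole tumors, 7 members had a mean of at least 1 CPM and were tested among 14630 genes, and none passed the test between cKO and control. Their limma adjusted p ran from 0.855 upward, where 0% of all genes passed the threshold and 5.85% had an unadjusted p under 0.05, again with no member among them. The log2 difference was positive for 4 of 7 with a median of 0.16, against 56.6% of all genes and a median of 0.09. With 2 libraries a group, every cKO library lay above every control for 3 of 7 members and 21.2% of genes, and below for 1 of 7 and 14.3%.

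Mrc1 was the tested member below its controls, with 16.0 and 17.9 CPM in cKO tumors 725 and 746 and 26.1 and 21.9 CPM in control tumors 706 and 720. Its log2 difference was -0.47 (SE 0.38, interval -1.28 to 0.33; limma adjusted p = 0.878). Cd163 was above its controls, at 9.05 and 8.25 CPM in cKO tumors and 6.64 and 2.09 CPM in control tumors (log2 difference 0.99, SE 0.69, limma adjusted p = 0.855); the difference was 0.33 without control 720 and 1.64 without control 706. Mrc1 and Cd163, the 2 genes closest in profile over all macrophage libraries, had opposite signs in tumors, both with 95% intervals that include 0. That likeness included the macrophages of cKO 867 and control 775, which had no tumor library. In the 4 mice with both kinds of library, macrophage log2 differences were opposite too, at -0.35 for Mrc1 and 0.27 for Cd163. F13a1 (14.4 and 15.3 CPM in cKO, 12.7 and 11.5 CPM in control tumors) and Gas6 (44.7 and 46.8 CPM in cKO, 38.9 and 43.0 CPM in control tumors) were also separated upward, by 0.27 (SE 0.46) and 0.16 (SE 0.28) on the log2 scale.

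Selenop had 247 and 208 CPM in cKO tumors and 237 and 150 CPM in control tumors, and Stab1 8.58 and 14.3 CPM in cKO and 12.1 and 14.1 CPM in control tumors; both overlapped between genotypes. Mertk had 0.0187 CPM (1 read) and 3.73 CPM in cKO tumors and 5.33 and 3.07 CPM in control tumors, which gave -1.21 on the log2 scale (SE 0.94, adjusted p = 0.878 by limma), or -0.10 without cKO 725 and -2.32 without cKO 746. The macrophages sorted from cKO 725 held 43.8 CPM of Mertk. The untested Lyve1 had 0.918 and 0.367 CPM in cKO and 1.23 and 1.03 CPM in control tumors, and Folr2 0.0375 CPM (2 reads) and 0 in cKO and 0.644 and 0 CPM in control tumors. The antisense Gm10602 was above Folr2 in every tumor, at 2.11 to 7.45 CPM. Fibroblast markers summed to 391 and 534 CPM in cKO tumors and 671 and 815 CPM in control tumors, lymphatic endothelial markers to 87.3 and 77.8 CPM in cKO and 108 and 46.1 CPM in control tumors, and the identity genes to 177 and 182 CPM in cKO and 173 and 153 CPM in control tumors. Their part in the members' levels was not tested.

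The mice with both libraries show how far the level of each member in sorted macrophages stood above that in the tumor, called enrichment here. Such a ratio is not particular to macrophage genes. Mean Krt18, an epithelial keratin, was 559 and 430 CPM in cKO and control macrophages (n = 3 each), against 130 and 120 CPM in tumors (n = 2 each). Summed epithelial markers overlapped between macrophages and tumors. The tables were normalized separately, so ratios of macrophage to tumor CPM are given by mouse and not tested. Stab1 was enriched as much as the identity genes, 14.9 and 16.5 times in cKO mice 725 and 746 and 18.8 and 16.5 times in control mice 706 and 720. Mertk was enriched 14.5 times in cKO 746 and 3.21 and 16.2 times in controls 706 and 720, with too few tumor reads for a ratio in cKO 725. F13a1 was enriched 3.71 and 2.50 times in cKO mice and 4.30 and 14.7 times in controls, and Mrc1 4.75 and 4.26 times in cKO mice and 2.36 and 6.98 times in controls. These lie below the enrichment of the identity genes in every mouse.

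Selenop was enriched 3.20 and 3.41 times in cKO mice and 2.77 and 4.70 times in controls, and Gas6 1.22 and 2.14 times in cKO mice and 2.22 and 1.46 times in controls. Cd163, a macrophage receptor, was hardly enriched in 3 of the 4 mice, at 1.27 and 1.37 times in cKO mice and 0.774 and 7.77 times in controls. Per 1000 CPM of identity genes, Cd163 was at 5.15 and 4.03 in macrophages and 51.2 and 45.4 in tumors of cKO mice 725 and 746, and at 2.04 and 6.50 in macrophages and 38.5 and 13.6 in tumors of control mice 706 and 720. Macrophages sorted from these tumors were thus poorer in Cd163, relative to the identity genes, than the tumors they came from, in 4 of 4 mice, and the same held for Mrc1, F13a1, Selenop and Gas6 but not for Stab1. This ratio is taken within a library and does not depend on scaling; the part of other cells in the tumor levels was not tested. Lyve1 had 39 and 3 reads in cKO macrophages 725 and 746 and 1 and 286 reads in control macrophages 706 and 720, so ratios were taken for cKO 725 (2.09) and control 720 (12.3) alone. Folr2 had enough reads in both libraries of control 706 only (18.0 times).

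**Figure D4:**
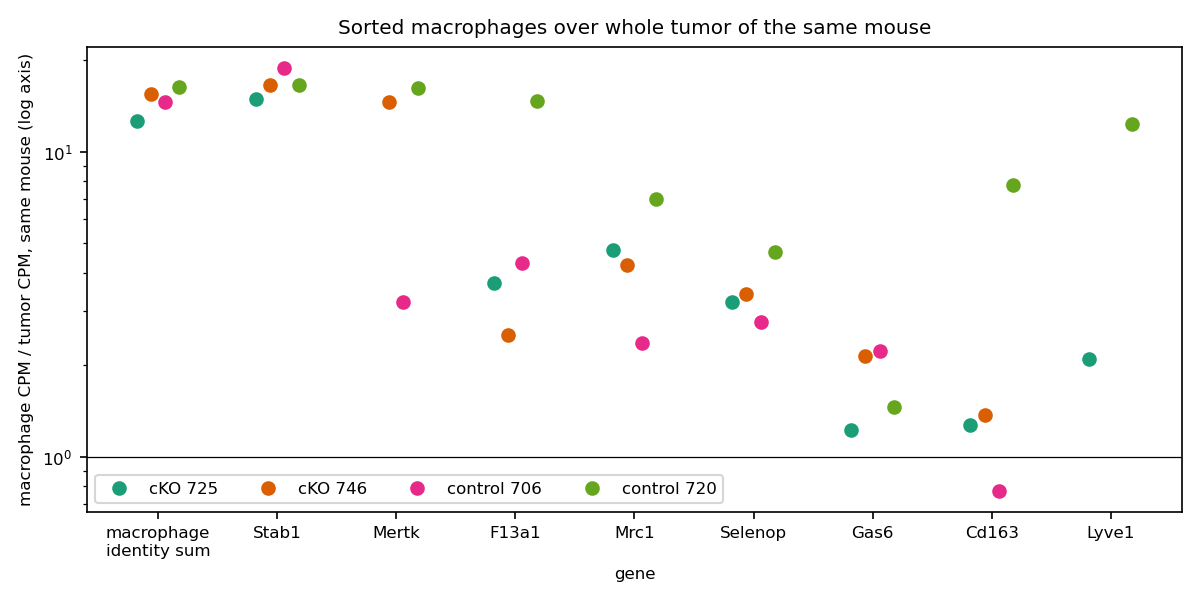
Level in sorted macrophages divided by the level in the whole tumor of the same mouse (log axis) for the summed macrophage identity genes and 8 of the 10 genes, in 2 cKO and 2 control mice; libraries with 3 reads or fewer give no point. Stab1 sits with the identity sum at 14.9 to 18.8, and Gas6 (1.22 to 2.22) and Cd163 (0.774 to 7.77) sit near 1, the horizontal line, in most mice.

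Other genes of the same biology were taken as lists, in each of which 0 genes passed the limma threshold in macrophages or tumors. Of 26 tested genes among 30 other resident and perivascular macrophage genes, the log2 difference was positive for 19 and negative for 7 in macrophages (median 0.44), and without cKO 867 it was positive for 12 and negative for 12 of 24 tested. The lowest unadjusted p belonged to Cd36, a scavenger receptor for lipids, at 319 ± 250 CPM in cKO and 154 ± 32.9 CPM in control macrophages (SD, n = 3 each; limma log2 difference 0.77, SE 0.37, adjusted p = 0.9998). Ninj1 followed with 60.2 ± 11.0 CPM in cKO and 39.3 ± 6.55 CPM in control macrophages, then Maf, the transcription factor of resident macrophages, with 81.0 ± 39.0 CPM in cKO and 57.9 ± 21.5 CPM in control macrophages. Cd209f, singled out after its values were seen, had 40.7 CPM in cKO 867 and 15.6 CPM in control 775, and was listed at 0 in cKO 746 and in the other controls. Timd4 and Vsig4, receptors of some resident macrophages, reached at most 1.47 and 1.03 CPM in any macrophage library. In tumors, 8 of 19 tested genes of this list were positive and 11 negative (median -0.13). Igf1, a growth factor, was at 32.4 ± 2.99 CPM in cKO and 52.8 ± 10.7 CPM in control tumors (SD, n = 2 each; log2 difference -0.68, limma adjusted p = 0.833).

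The scavenger receptor list had 6 positive and 3 negative differences of 9 tested in macrophages (median 0.06; without cKO 867, 2 positive and 7 negative) and 5 positive and 4 negative of 9 in tumors (median 0.05). Msr1, the macrophage scavenger receptor, was at 4.01 ± 0.527 CPM in cKO and 9.62 ± 1.76 CPM in control tumors (SD, n = 2 each; limma log2 difference -1.08, adjusted p = 0.833). The partners of Gas6 and Mertk in the uptake of dying cells had 9 positive and 5 negative of 14 in both macrophages (median 0.04) and tumors (median 0.16). Axl, the sister receptor of Mertk, was at 447 ± 193 CPM in cKO and 392 ± 175 CPM in control macrophages, and Pros1, the other ligand, at 154 ± 33.1 CPM in cKO and 137 ± 23.7 CPM in control macrophages (SD, n = 3 each). Mfge8, a bridge to integrins, was at 211 ± 82.5 CPM in cKO and 171 ± 44.7 CPM in control macrophages. In tumors Ggcx, the carboxylase that Gas6 needs to bind membranes, had the lowest unadjusted p of that list, at 10.6 ± 3.85 CPM in cKO and 26.1 ± 12.9 CPM in control tumors (SD, n = 2 each; limma log2 difference -1.18, adjusted p = 0.819). Partners of the other members, such as haem and selenium enzymes, had 12 positive and 8 negative of 20 in macrophages (median 0.08) and 13 positive and 7 negative of 20 in tumors (median 0.11).

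The direction of the scavenger receptor and partner lists in macrophages depended on scaling, while the resident list stayed mostly positive under each scaling. In each of these lists the counts also depended on single libraries. Relative to the identity genes, where the median of all genes was -0.21, differences were positive for 16 and negative for 10 of the resident list, for 3 and 6 of the scavenger receptors, for 1 and 13 of the Gas6 and Mertk partners and for 6 and 14 of the other partners. Scaled to the protein-coding total, they were positive for 4 and negative for 5 of the scavenger receptors and for 6 and 8 of the Gas6 and Mertk partners. The other partners had 11 positive and 9 negative on that total. Without cKO 746, 3 of the Gas6 and Mertk partners were positive and 11 negative, and without control 775, 5 were positive and 9 negative. The other partners had 10 positive and 11 negative without cKO 746, and 10 positive and 10 negative without cKO 867. Without control 775, 4 of the scavenger receptors were positive and 5 negative.

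By the same measure of likeness, over 9990 protein-coding genes and the 6 macrophage libraries, the genes nearest to the mean profile of the 10 members were Mpdz (0.0265 SD), Pde2a (0.0955), Upf2 (0.129), Arhgap31 (0.137) and Atg2b (0.154 SD), where the median gene was at 1.01 SD. Mpdz had 7.42, 9.66 and 18.4 CPM in cKO macrophages 725, 746 and 867 and 6.67, 9.53 and 7.74 CPM in control macrophages 706, 720 and 775, a profile with a single high library. The nearest gene to Mrc1 was Mib2 (0.0615 SD), to Cd163 Rgmb (0.0595), to Lyve1 Atp8b1 (0.0832), to F13a1 Mtmr11 (0.110) and to Folr2 Sspn (0.0757 SD). For Stab1 it was Ube2k (0.0401 SD), for Mertk Pmepa1 (0.123), for Gas6 Gzf1 (0.132) and for Selenop Wdyhv1 (0.174 SD). With 6 libraries and this many genes, near matches are common, and the distances are given as a description only.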

How the data were processed

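RNA was measured in 6 libraries of sorted macrophages and 4 of whole tumors after removal of ribosomal RNA, per the labels' protocols. The submitters' processing notes name STAR 2.7.8a, Partek and GRCm38 (mm10); the counter and its use of strand are not given in the sources used here. The deposited values are log2 values: 2 to the power of each, minus 1, sums to 1e+06 in every library, so each is log2(CPM + 1), which was read from the values. The planned tests assumed linear values; here they took these log2 values directly. Depth was inferred from the value of a single read; 80.4% to 89.2% of low values were whole reads within 0.1 read, under the 95% set for a count test. Positions come from GENCODE vM21 by gene ID, since 2.19% and 2.29% of the tables' starts matched it.

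The tables were fitted separately in limma 3.58.1 under R 4.3.3 (eBayes with trend, mean of at least 1 CPM, two-sided, Benjamini-Hochberg over all genes tested). Within each fit, libraries are from different mice. Mice 725, 746, 706 and 720 each gave both a macrophage and a tumor library. From each list, up to 3 genes with the lowest unadjusted p and a mean of at least 5 CPM were named. The members and the lists were chosen with earlier results of these data known. Alternatives were other pseudocounts, filters, scalings (trimmed mean of M values, median ratios, protein-coding total, identity genes), eBayes without trend and left-out libraries. The fits were tested on simulated data. The gene nearest in profile to Pf4 is not reported here.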

Additional observations from a re-analysis of the deposited data

How the results depend on the processing

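Genes past the threshold in macrophages numbered 0, against 0 to 3 with a library left out (1 without cKO 867, 1 without control 706, 3 without control 775) and 2 with only the 4 mice in both tables; no member was among them, and in tumors the number was 0 throughout. Members with a positive difference in macrophages numbered 8 of 10, 5 to 10 with a library left out, the 5 without cKO 867, and 6 relative to the identity genes. In tumors they numbered 4 of 7, and 3 to 5 with a library left out. Relative to the identity genes the median of all genes was -0.21 in macrophages, with 32.1% positive against 54.7%, and Stab1 (-0.17) and Gas6 (-0.056) changed sign; with the 4 mice, Mrc1 (-0.35) and Stab1 (-0.40) did. Leaving out a library moved the macrophage log2 difference over -0.55 to 0.81 for Mrc1, -0.64 to 1.18 for Folr2, -1.71 to 0.69 for Lyve1, -0.33 to 1.46 for Cd163, -1.30 to 0.30 for F13a1, -0.41 to 0.34 for Stab1 and -0.062 to 0.54 for Gas6, and in tumors over -0.55 to 0.12 for Stab1, 0.33 to 1.64 for Cd163, -2.32 to -0.10 for Mertk and -0.061 to 0.59 for Selenop. Pf4, Selenop and Mertk kept their sign in macrophages under every alternative run. Of the other 90 macrophage values under other settings, 88 kept their direction and the 2 above did not; all 62 tumor values kept theirs. Scaled to protein-coding genes, the median macrophage to tumor ratio was 12.5 for Folr2, 1.22 for Gas6, 2.37 for Selenop, 11.3 for Stab1 and 0.948 for Cd163, below 1. The causes were not tested. No paired analysis was possible because the partners of the size-matched pairs are not named in the sources used here; the fits ignore that pairing. Groups of 2 and 3 libraries limit what can be called, and genes near the 3-read floor, such as Lyve1 and Folr2, are measured least well.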
